A study of Mus musculus with 4 samples.

Results

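Keratin-associated proteins are the matrix of the hair shaft: small proteins that fill the space between keratin filaments in the cortex and cuticle of hair and cross-link them. Their genes are short, lie in tandem clusters and are switched on late, as cells of the hair matrix turn into shaft. The proteins fall into classes rich in sulfur (high and ultra-high cysteine content) or rich in glycine and tyrosine.

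The genes described here are all those whose mouse symbol starts with Krtap. A RefSeq gene table of the build GRCm38.p6 held 56 such genes, of which 47 had a transcript in the deposited files, among 17574 genes with a symbol in all. Each of the 47 had 1 transcript, and the GENCODE M21 model of each had 1 exon. The 9 other genes were not analysed here.

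The samples were tumours of SCC7 cells, a mouse head and neck squamous carcinoma line labelled wild type, grown from cells injected beneath the back skin of mice of the strain C3H/HeN. The anti-CD71 group was given antibody to the transferrin receptor, CD71, on days 6 and 9, and tumours of both groups were taken on day 10 for bulk RNA sequencing. The age and sex of the mice, what the control mice received, and whether a library came from 1 tumour or from several are not stated in the labels. There were 2 control and 2 anti-CD71 libraries. Nothing says that the libraries of a group came from separate mice, so a p-value measures only the spread between these libraries.

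The values are TPM, a relative transcript level already divided by transcript length. Each complete file listed 59881 transcripts. For anti-CD71 replicate 1 only 13586 transcripts (22.7%) could be used, because its file ends early, inside a broken last line. They covered 17 of the 47 Krtap genes. The other 30 are missing for that library, not 0. The read depth behind TPM is unknown, so no counting interval is given. As a check of the label, the keratin genes of simple epithelium Krt8 (1132.27 and 1202.77 TPM) and Krt18 (657.36 and 680.49 TPM) and the mesenchymal filament gene Vim (6027.64 and 6157.96 TPM) were high in the controls. The squamous markers Krt5 (0 and 0 TPM), Krt14 (0.09 and 0.1 TPM) and Trp63 (0.18 and 0.32 TPM) were at or near 0 there, which goes against a squamous profile. Krt17 (0.06 and 0.14 TPM) and Krt6a (0.03 and 0 TPM) were near 0 in the controls too. So was the epithelial gene Epcam (0.1 and 0.2 TPM), unlike Krt8 and Krt18. In anti-CD71 replicate 2, Krt17 stood at 26.84 TPM, Krt6a at 9.25 TPM, Trp63 at 1.35 TPM and Epcam at 1.3 TPM. Krt8, Krt18, Vim, Trp63, Epcam, Krt17 and Krt6a were chosen for this check after their values were seen.

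Keratin-associated protein genes were listed above traces in 1 of the 4 libraries, anti-CD71 replicate 2. There, 46 of the 47 Krtap genes stood above both controls, against 38.1% of all genes with a symbol. Their TPM summed to 0.49 in control replicate 1, 0.83 in control replicate 2 and 243.6 in anti-CD71 replicate 2. In anti-CD71 replicate 1, all 17 listed Krtap genes were at 0, so 0 of 17 lay above both controls, against 28.4% of the 1703 genes whose transcripts were all listed. Over the same 17 genes the sums were 0.24 and 0.63 TPM (controls), 0 (anti-CD71 replicate 1) and 105.3 TPM (anti-CD71 replicate 2). In the last of these libraries, 17 of 17 lay above both controls, against 41.7% of the 1703. In anti-CD71 replicate 1, 1 of the 17 (Krtap8-1) lay below both controls, against 35.1%. In anti-CD71 replicate 2 there were 0 below, against 26.7% of the 1703 and, for all 47 members, 35.6% of all genes. A gene at 0 in a control cannot lie below both controls, and only Krtap8-1 was above 0 in both. These counts below the controls were thus nearly fixed in advance and say nothing of the family. For this family, then, anti-CD71 replicate 2 lay above the controls and anti-CD71 replicate 1 at 0, over the members both list, so the antibody group did not stand apart from the controls as a group. In bulk tissue, more cells of a type and more RNA per cell cannot be told apart.

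**Figure D1:**
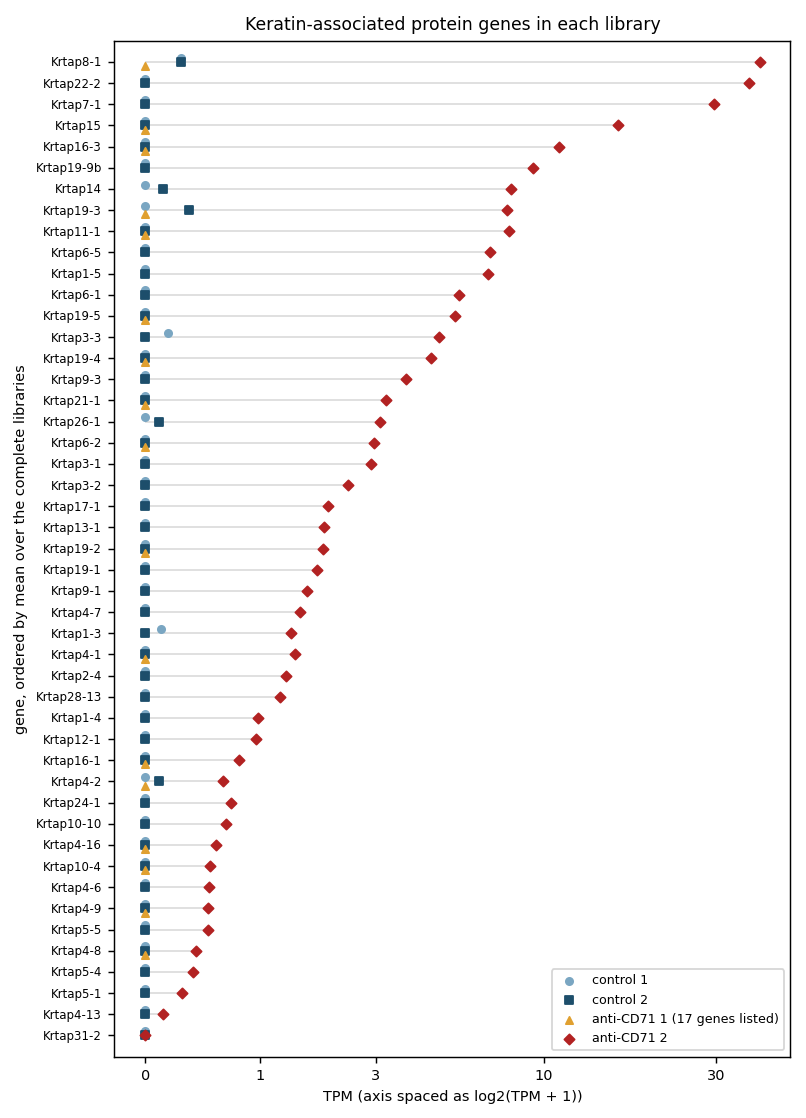
TPM of each of the 47 Krtap genes in control replicates 1 and 2, anti-CD71 replicate 1 (triangles, 17 genes listed) and anti-CD71 replicate 2 (diamonds), on an axis spaced as log2(TPM + 1). Anti-CD71 replicate 2 is the only library to the right of the axis start for nearly every gene, from 0.11 TPM for Krtap4-13 to 39.38 TPM for Krtap8-1, and the 17 triangles all sit at 0.

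In the controls, 40 of the 47 genes were listed at 0 in both libraries, and the highest control value of any was 0.3 TPM (Krtap19-3, control replicate 2). Of the 40, 39 were above 0 in anti-CD71 replicate 2, against 56.1% of the 1247 genes at 0 in both controls. At least 1 TPM was reached by 25 of the 40, against 6.98% of the 1247. A trace from genes at 0 in the controls was thus common in that library, and a level of 1 TPM was not. Among the members listed for all 4 libraries, 14 were at 0 in both controls: in anti-CD71 replicate 1, 0 of them were above 0, against 32.3% of 251 such genes, and 14 in replicate 2, against 57.0%. At least 1 TPM was reached by 0 of the 14 in anti-CD71 replicate 1, against 1.2%, and by 9 in anti-CD71 replicate 2, against 7.97%. The 87 genes at 0 in both controls and at 1 TPM or more in anti-CD71 replicate 2 comprised the 25 Krtap genes (28.7%), 15 keratin genes, 10 further genes inside the Krtap clusters and 37 others. Krtap31-2, on chromosome 11 from 99936291 to 99937225, was the member at 0 in every library that listed it.

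The highest level belonged to Krtap8-1, which encodes a glycine- and tyrosine-rich protein of the hair cortex and lies on chromosome 16 from 89487374 to 89487952. It stood at 0.24 TPM in each control, 39.38 TPM in anti-CD71 replicate 2, and replicate 1 listed it at 0. It was the member with a trace in both controls, and the treated libraries lay below and above that trace. Krtap22-2, of the same class (chromosome 16, 89010380 to 89010759), was at 0 in both controls and at 36.98 TPM in anti-CD71 replicate 2. Krtap7-1, also glycine- and tyrosine-rich (chromosome 16, 89507703 to 89508323), was at 0 in both controls and at 29.6 TPM. Neither was listed for anti-CD71 replicate 1. Together these 3 genes held 43.5% of the family's TPM in anti-CD71 replicate 2, the 10 highest held 71.2%, and the 20 highest 89.0%.

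The promoters of the family show what its members share in sequence. RefSeq promoter windows of GRCm38.p6, from 250 bases before to 50 after the annotated start, were given for 42 of the 47 genes. Below are the 100 bases just before the start of the 4 genes with the highest mean level that had a window and of the 2 with the lowest, 5′ to 3′ on the gene's strand. Capitals mark the word TATAAA, the core of the TATA box. Krtap8-1 is chr16:89487953-89488052 on the minus strand, Krtap22-2 chr16:89010760-89010859 minus, Krtap15 chr16:88828909-88829008 plus, Krtap16-3 chr16:88962874-88962973 minus, Krtap4-13 chr11:99809897-99809996 minus and Krtap31-2 chr11:99936191-99936290 plus.
Krtap8-1: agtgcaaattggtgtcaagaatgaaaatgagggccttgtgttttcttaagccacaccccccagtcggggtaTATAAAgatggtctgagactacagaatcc
Krtap22-2: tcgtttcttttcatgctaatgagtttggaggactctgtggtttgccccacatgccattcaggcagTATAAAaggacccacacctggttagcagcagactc
Krtap15: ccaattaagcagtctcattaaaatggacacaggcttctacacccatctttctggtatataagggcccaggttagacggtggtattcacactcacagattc
Krtap16-3: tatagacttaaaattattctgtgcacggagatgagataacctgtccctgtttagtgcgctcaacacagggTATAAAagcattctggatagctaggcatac
Krtap4-13: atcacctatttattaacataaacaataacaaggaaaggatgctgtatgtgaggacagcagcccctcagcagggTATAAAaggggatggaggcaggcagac
Krtap31-2: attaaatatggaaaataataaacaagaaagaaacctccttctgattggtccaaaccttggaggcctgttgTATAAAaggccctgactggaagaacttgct
The word began 29 bases before the start in Krtap8-1, 35 in Krtap22-2, 30 in Krtap16-3, 27 in Krtap4-13 and 30 in Krtap31-2. High and low members therefore both carried it, while Krtap15 held the variant TATAAG and not TATAAA.

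Over the whole window and both strands, TATAAA was present in 35 of the 42 Krtap windows (83.3%), against 4473 of all 32851 windows in the RefSeq table (13.6%). With its first base 40 to 20 bases before the start on the gene's strand, it was present in 25 of 42 (59.5%), against 1.99% of all windows. The 7 Krtap windows without TATAAA all held TATAAG on the gene's strand, against 3.65% of all windows without TATAAA. That variant was added after the windows had been read. Levels in anti-CD71 replicate 2 had a median of 1.54 TPM (0 to 39.38) over the 25 genes with the word at that place and 2.97 TPM (0.33 to 16.26) over the other 17. A match is a description of letters and not of a bound factor.

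Words like the sites of factors known in hair were looked for on both strands too. CTTTGAA, a LEF1/TCF word, was in 9 of 42 windows (21.4%, against 5.14% of all windows), and CTTTGTT, another, in 5 (11.9%, against 5.85%). TTTATNA, resembling sites of the hair matrix factor HOXC13, was in 15 windows (35.7%, against 14.1%) and, where it did not overlap TATAAA, in 13 (31.0%, against 11%). TTAATNA was in 14 (33.3%, against 10.9%). The windows of clustered copies share ancestry, so they are not independent draws. Base composition was not matched between the Krtap windows and all windows, so these shares do not measure enrichment for the factors.

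**Figure D2:**
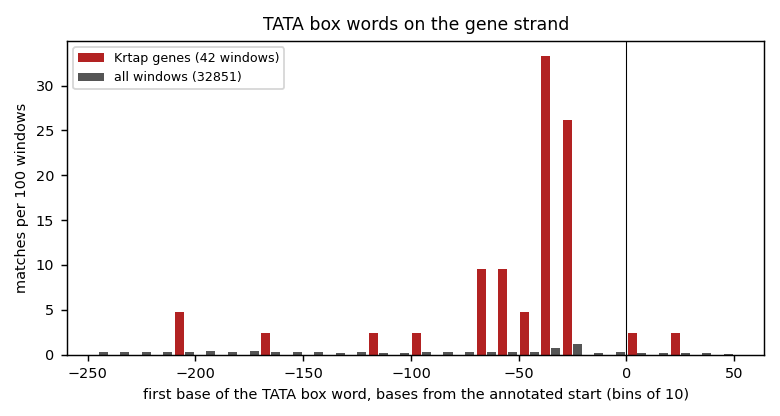
Position of the TATA box word on the gene's strand, in bases from the annotated start (bins of 10 bases), as matches per 100 promoter windows, for 42 Krtap windows and all 32851 windows. The Krtap bars peak between 40 and 20 bases before the start, where the bins hold 33.3 and 26.2 matches per 100 windows.

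By class, the glycine- and tyrosine-rich families were highest. Their 13 genes ran from 1.82 to 39.38 TPM in anti-CD71 replicate 2, with a median of 5.63 TPM and a sum of 155.72 TPM (63.9% of the family's total). The 13 high-sulfur genes ran from 0.68 to 16.26 TPM, with a median of 2.9 TPM and 24.1% of the total. The 14 ultra-high-sulfur genes ran from 0.11 to 3.81 TPM, with a median of 0.5 TPM and 5.76% of the total. The order of medians follows from 1 library, and the ranges overlap between neighbouring classes. The other 7 genes were left without a class. They ran from 0 to 11.1 TPM, with a median of 0.76 TPM, and placing them in a class could move its median and range. Classes follow the families' usual names, since protein sequences were not used here, and were set with these values known.

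Among the other glycine- and tyrosine-rich genes, the Krtap19 family had 6 members that ran from 1.82 to 9.34 TPM in anti-CD71 replicate 2, with Krtap19-9b at the top. Krtap19-3 stood at 7.8 TPM in anti-CD71 replicate 2, at 0 in replicate 1, and at 0 and 0.3 TPM in the controls. Krtap19-5 (5.45 TPM), Krtap19-4 (4.6 TPM) and Krtap19-2 (1.92 TPM in anti-CD71 replicate 2) were at 0 in the other 3 libraries. The 3 members of the Krtap6 family were at 0 in both controls and at 6.98 TPM (Krtap6-5), 5.63 TPM (Krtap6-1) and 2.97 TPM (Krtap6-2). Krtap6-2 and Krtap21-1 (3.25 TPM) were listed for anti-CD71 replicate 1, at 0. Every glycine- and tyrosine-rich gene thus lay above both controls in anti-CD71 replicate 2.

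Of the high-sulfur genes, Krtap15, on chromosome 16 from 88829009 to 88829844, was at 0 in 3 libraries and at 16.26 TPM in anti-CD71 replicate 2. Its neighbour Krtap14 was at 0 and 0.11 TPM in the controls and at 8.05 TPM in that library. Krtap11-1 was likewise at 0 in those 3 and at 7.92 TPM. On chromosome 11 the levels were lower, led by Krtap1-5, from 99579977 to 99581016, with 0 TPM in both controls and 6.87 TPM in anti-CD71 replicate 2. Krtap3-3 stood at 0.15 and 0 TPM in the controls and at 4.85 TPM, and Krtap3-1 at 0, 0 and 2.9 TPM. Krtap26-1 had 0 and 0.09 TPM in the controls and 3.1 TPM in anti-CD71 replicate 2.

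The ultra-high-sulfur genes encode proteins known mainly from the hair cuticle and cortex. Krtap9-3 was the highest, at 0 in both controls and 3.81 TPM in anti-CD71 replicate 2. Of the 8 Krtap4 genes the highest was Krtap4-7, at 1.54 TPM. The 5 listed for all libraries were at 0 in anti-CD71 replicate 1. In replicate 2 they stood at 1.46 TPM (Krtap4-1), 0.6 TPM (Krtap4-2), 0.53 TPM (Krtap4-16), 0.46 TPM (Krtap4-9) and 0.36 TPM (Krtap4-8). Krtap4-2 also had 0.09 TPM in control replicate 2, and the other 4 were at 0 in both controls. The 3 Krtap5 genes, on chromosome 7, ran from 0.25 to 0.46 TPM. Outside the classes, Krtap16-3, on chromosome 16, stood at 11.1 TPM, Krtap16-1 at 0.76 TPM and Krtap10-4 at 0.48 TPM, all at 0 in the other 3 libraries.

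Most of the family's level came from chromosome 16. The 20 genes there, between 88610709 and 89571183, summed to 204.77 TPM in anti-CD71 replicate 2, 84.1% of the family, with a median of 6.31 TPM. The 20 genes on chromosome 11, between 99550132 and 99993994, summed to 34.48 TPM (14.2%), with a median of 1.38 TPM. The 3 genes on chromosome 10 summed to 2.06 TPM, the 3 on chromosome 7 to 1.04 TPM, and Krtap28-13 on chromosome 1 stood at 1.25 TPM. The clusters also hold genes without a Krtap symbol. All 7 on chromosome 16, all 10 on chromosome 10, all 4 on chromosome 7 and 9 of 10 on chromosome 11 were at 0 in both controls and above 0 in anti-CD71 replicate 2, the exception being Gm11565 at 0. Of all genes at 0 in both controls, 56.1% were above 0 there, and the neighbours on chromosomes 7 and 10 were traces of 0.12 to 0.61 TPM, while those on chromosome 16 ran from 0.12 to 21.93 TPM. The highest of them, Gm10229, stood at 21.93 TPM between Krtap22-2 and Krtap6-1.

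**Figure D3:**
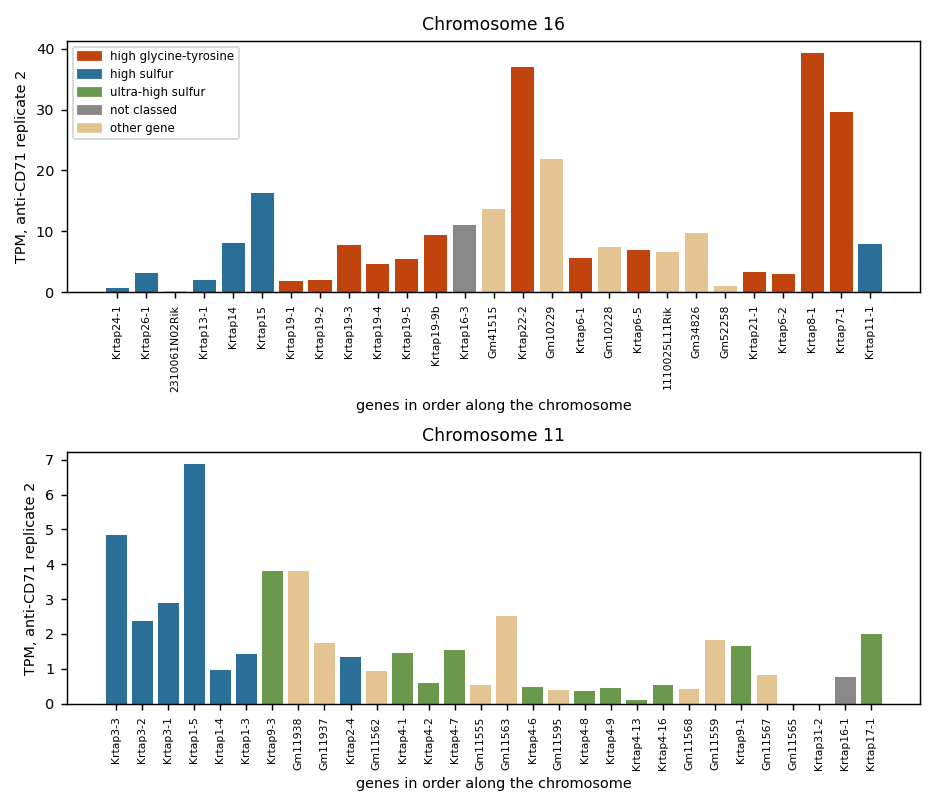
TPM in anti-CD71 replicate 2 of the genes on chromosome 16 and chromosome 11 between the first and last Krtap gene, in order along each chromosome, with Krtap genes coloured by class and other genes in tan. Bars on chromosome 16 reach 39.38 TPM and those on chromosome 11 reach 6.87 TPM, and the scales of the panels differ.

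Level and transcript length ran in opposite directions. Over the 47 genes, with transcripts of 304 to 1888 bases in GENCODE M21, Spearman's rho between length and TPM in anti-CD71 replicate 2 was -0.55. This is a description across genes of 1 library, whose class, cluster and length go together. TPM of such short transcripts also depends on how a program corrects for fragment length, and that program is not named in the labels.

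**Figure D4:**
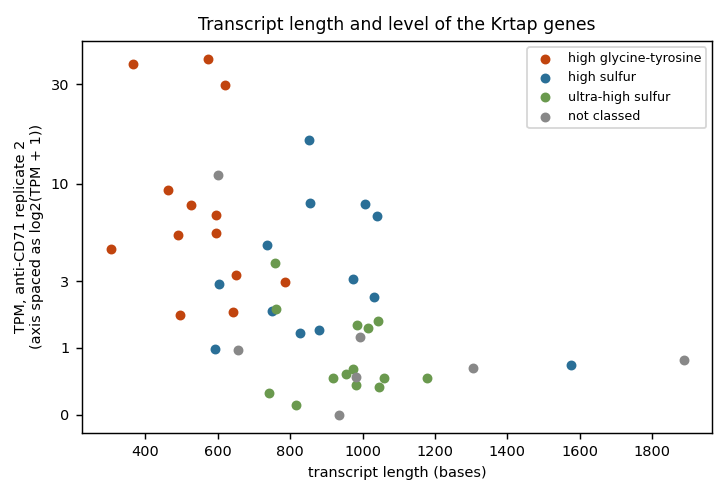
Transcript length in bases against TPM in anti-CD71 replicate 2 (axis spaced as log2(TPM + 1)) for the 47 Krtap genes, coloured by class. The 3 genes near or above 30 TPM have transcripts of 365 to 621 bases, and the ultra-high-sulfur genes lie at or below 3.81 TPM.

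Copies within the family share sequence, so reads can be split between them. Of the 47 transcripts, 34 shared at least 1 window of 50 bases with a transcript of another gene, the most being Krtap4-13 with 81.3% of its windows and Krtap5-1 with 60.6%. Krtap31-2 shared 41.5% with other genes, and values of these genes are uncertain. Krtap6-1 shared 28.3%, most often with the cluster neighbour Gm10229, so values of such neighbours are uncertain too. The 13 transcripts with no shared window, among them Krtap8-1, Krtap22-2, Krtap7-1, Krtap15 and Krtap14, all lay above both controls in anti-CD71 replicate 2. They ran from 0.53 to 39.38 TPM with a median of 5.45 TPM and held 64.3% of the family's total.

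The test across all genes did not reach the family. Limma was run on log2(TPM + 1) over genes reaching 1 TPM in 2 or more libraries, with calls at an adjusted p (Benjamini-Hochberg) below 0.05. No Krtap gene passed that filter, neither over 4 libraries (0 of 1563 tested genes, of which 0.832% were called higher and 3.45% lower) nor for anti-CD71 replicate 2 against the controls (0 of 11982, of which 0.476% were called higher and 2.39% lower). With no filter, limma over 4 libraries tested 17 members and called 0, 0 of them at an unadjusted p under 0.05, with adjusted p from 0.569 to 0.616 (0.0411% of 2433 genes were called higher and 0.0% lower, and 17.8% had an unadjusted p under 0.05). The 17 members had a median log2 change of 0.99 in a fit whose median over all genes lay at 0. Of the 17, 14 were at 0 in both controls and in anti-CD71 replicate 1. These 14 entered only through anti-CD71 replicate 2, which fixes their direction, so that median is not support for a change of the group. With 1 TPM in 1 library limma tested 11 members over 4 libraries and called 0 (0.0616% of all tested genes were called higher). Those 11 also entered by their level in anti-CD71 replicate 2. For Krtap8-1 limma gave a log2 change of 2.36 with an SE of 2.02 (adjusted p = 0.586).

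For anti-CD71 replicate 2 alone against the controls, where its spread is assumed to be that of the controls, the outcome turned on the filter and the pseudocount. With no filter, limma tested 46 members and called 0 (adjusted p from 0.055 to 0.209), with all 46 at an unadjusted p under 0.05, against 20% of all genes, and 0.0% of genes called higher. Their median log2 change was 1.55, against -0.0021 over all genes. A filter of 1 TPM in 1 library let 31 members in, and 13 were called higher (0.482% of all tested genes). A mean of at least 0.5 TPM let 28 in, and 14 were called (0.522%). Members enter under both filters by their level in anti-CD71 replicate 2 itself, so these counts are not support. With no filter and a pseudocount of 0.1, chosen after the data were seen, 39 of 46 were called higher (1.3% of all genes). Genes at 0 in both controls carry no spread of their own. With no filter they enter only through anti-CD71 replicate 2, which fixes their direction. Of the 40 members at 0 in both controls, 39 entered in this way. The counts with no filter are therefore not support either. Over 1563 genes the difference in log2(TPM + 1) had an SD of 0.294 between the anti-CD71 libraries and 0.222 between the controls.

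Other genes of the hair follicle stood beside the family in anti-CD71 replicate 2. The partners of keratin-associated proteins in the shaft are the hair keratins, and 15 of 15 found lay above both controls there, against 38.1% of all genes. Of these, 11 were at 0 in both controls. All 11 were above 0 in anti-CD71 replicate 2, against 56.1% of all genes at 0 in both controls. The hair keratins summed to 0.09 and 0.12 TPM in the controls and 51.4 TPM in anti-CD71 replicate 2. Krt83 (0, 0.08 and 7.96 TPM), Krt33a (0, 0 and 7.2 TPM) and Krt35 (0, 0 and 6.22 TPM) were highest. For anti-CD71 replicate 1, 3 hair keratins were listed, each at 0, among them Krt81 with 5.58 TPM in replicate 2. The summed level of the 47 Krtap genes was above that of the 15 hair keratins, on a scale per length, but it was summed over more genes. The list named 16 hair keratins, and Krt85 was not found, so its level is not in the sum.

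The inner root sheath, the sleeve that moulds the growing hair, was represented too. Of 10 genes found, 9 lay above both controls in anti-CD71 replicate 2, against 38.1% of all genes. The list summed to 8.54 and 11.16 TPM in the controls and 243.8 TPM in that library. Krt71 stood at 0.06, 0 and 77.12 TPM and Tchh, which encodes trichohyalin, at 0.06, 0.02 and 32.6 TPM. Krt25 stood at 60.54 TPM there and at 0 in the other 3 libraries. Gata3, the exception, was at 8.33, 11.09 and 8.92 TPM and held most of the list's control level.

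Regulators gave a mixed picture. Hoxc13, a homeobox factor of the hair matrix, was at 0 in 3 libraries and at 1.21 TPM in anti-CD71 replicate 2. Of the 12 regulators, 7 lay above both controls and 4 below in anti-CD71 replicate 2, against 38.1% and 35.6% of all genes. The 3 highest were Trps1 (28.44, 28.49 and 23.36 TPM in control replicates 1 and 2 and anti-CD71 replicate 2), Vdr (10.67, 9.94 and 8.17 TPM) and Msx1 (5.08, 4.42 and 4.08 TPM), factors also active outside hair. Limma tested 5 of the 12 for anti-CD71 replicate 2 and called 0.

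Of the 11 cortex and cuticle genes, 9 lay above both controls in anti-CD71 replicate 2, against 38.1% of all genes. S100a3, which encodes a calcium-binding protein of the hair cuticle, passed limma for anti-CD71 replicate 2 against the controls, the 1 called among 5 tested. It rose from 2.75 and 2.88 TPM to 31.02 TPM (log2 change 3.07, SE 0.12, adjusted p = 0.00285), a call lost with no filter (adjusted p = 0.0741). It was not listed for anti-CD71 replicate 1. Psors1c2 (1.74, 0.57 and 7.05 TPM, adjusted p = 0.0628 by limma) and Selenbp1 (5.14, 6.05 and 3.94 TPM, adjusted p = 0.193) did not pass.

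Markers of skin and other tissue stood beside the family to different degrees, and their part in the result was not tested. In the list of interfollicular epidermis, the skin surface between hairs, 18 of 18 genes found lay above both controls in anti-CD71 replicate 2. Among all genes the share was 38.1%. That list summed to 3.36 and 3.61 TPM in the controls and 119.91 TPM in anti-CD71 replicate 2, with Krt14 (36.37 TPM), Krt5 (31.4 TPM) and Krtdap (17.16 TPM) highest. Krt14 and Krt5 served above as squamous markers, so the list is not particular to skin between hairs. Over its 8 genes with a transcript listed for all 4 libraries the sum was 16 TPM in anti-CD71 replicate 2, 0.09 TPM in replicate 1, and 0.81 and 0.66 TPM in the controls. Limma called Sbsn higher, the 1 of 2 tested (log2 change 1.71, adjusted p = 0.0249), a call lost with no filter (adjusted p = 0.148). Krt5 and Krt1 were among 10 genes of the list at 0 in both controls. All 10 were above 0 in anti-CD71 replicate 2, against 56.1% of all genes at 0 in both controls.

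Melanocyte genes, which mark pigment cells of the hair bulb, lay above both controls for 7 of 10 (38.1% of all genes did), at low levels such as Mlana (0, 0 and 1.83 TPM), while Mitf (6.83, 7.89 and 6.05 TPM) and Kit (3.67, 4.1 and 2.7 TPM) lay below both. The list summed to 10.78 and 12.24 TPM in the controls and 13.57 TPM in anti-CD71 replicate 2. Adipocyte genes lay above for 8 of 10, with sums of 94.72, 115.34 and 139.84 TPM, of which Fabp4 made 77.37, 103.77 and 105.33 TPM. Limma called Cfd, an adipocyte product, higher among 4 tested, at 15.32 TPM against 1.9 and 0.99 TPM (log2 change 2.76, adjusted p = 0.0249), a call also lost with no filter (adjusted p = 0.207). Lipe stood at 6.31, 8.2 and 5.06 TPM.

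Sebaceous, dermal papilla and muscle lists held genes of high control level beside genes near 0, and their difference from the family was not tested. Counts above both controls are to be read against the 38.1% of all genes. Of 9 sebaceous gland genes 6 lay above both controls, with sums of 370.81, 351.42 and 396 TPM carried by Plin2 (249.92, 232.59 and 301.66 TPM), Scd1 (97.69, 94.82 and 69.02 TPM) and Fads3 (20, 20.76 and 20.3 TPM). Among its low genes were Krt79 (0.07, 0 and 0.96 TPM) and Elovl3 (0.08, 0 and 0.4 TPM). Of 10 dermal papilla genes 5 lay above, and the list was carried by Crabp1 (814.46, 911.73 and 814.77 TPM), Fgf7 (16.33, 11.97 and 22.51 TPM) and Sox2 (16.75, 15.18 and 17.06 TPM), each present in every complete library, while Wif1 stood at 0, 0 and 0.32 TPM. Of 13 skeletal muscle genes 4 lay above both controls, and the list was highest in control replicate 1, with sums of 231.74, 63.06 and 148.81 TPM. Acta1 (75.89, 17.41 and 38.3 TPM), Tnni2 (30.96, 15.17 and 25.6 TPM) and Mylpf (36.22, 9.1 and 18.24 TPM) led it, and its lowest genes by mean, Myh4 (0.38, 0.66 and 3.13 TPM) and Pvalb (0.56, 0.28 and 1.76 TPM), lay above both controls. Only 4 of the 9 sebaceous, 3 of the 10 dermal papilla and 11 of the 13 muscle genes passed the filter and were tested. Of the 10 melanocyte genes 2 were tested, Mitf and Kit. Krt79, Elovl3, Wif1, Myh4, Pvalb and Mlana were thus not tested. Limma called 0 genes in these 3 lists and 0 melanocyte genes for anti-CD71 replicate 2.

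**Figure D5:**
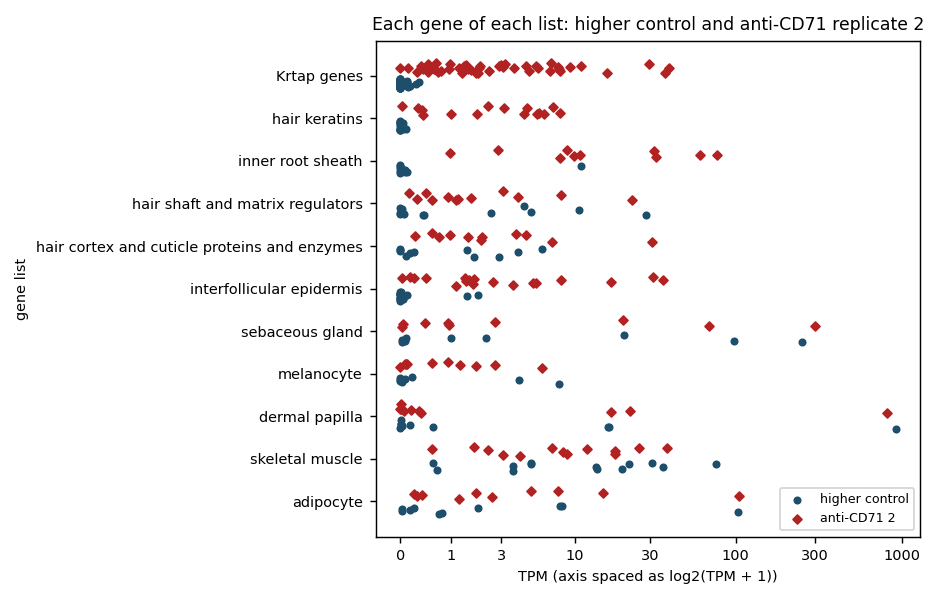
Each gene of the Krtap family and of 10 gene lists, with the higher of its 2 control values (circles) and its value in anti-CD71 replicate 2 (diamonds), in TPM on an axis spaced as log2(TPM + 1). In the Krtap, hair keratin and epidermis rows nearly all circles sit at or near 0 and the diamonds spread to the right, while the muscle row has circles well above 0.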

How the data were processed

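Bulk RNA sequencing of 2 control and 2 anti-CD71 tumour libraries was analysed from TPM per RefSeq transcript, as the authors deposited them. RNA was extracted with TRIZOL and libraries were prepared by BGI, per the labels' protocols. The submitters' processing notes name GRCm38.p6 as the build. For alignment and quantification, the program is not given in the sources used here. Values were summed per gene symbol through a RefSeq table of that build, which matched 58425 transcripts, second-locus copies included (1744). The broken last line of the partial file was not used.

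Limma 3.58.1 in R 4.3.3 was fitted to log2(TPM + 1) with an intensity trend, over all genes reaching 1 TPM in 2 or more libraries, and was tested on simulated data. Over 4 libraries a gene entered where its listed transcripts held at least 90% of its TPM. Fold changes on this scale understate the change of low genes. Counts above both controls carry no test. Genes were named by rank of mean TPM: the 20 highest members, members listed for all 4 libraries with a value above 0, and the 3 highest of each list. Krtap4-7, Krtap4-13, Krtap5-1, Krtap28-13 and Krtap31-2, the cluster neighbours, and Gata3, Hoxc13, Krt81, Krt1, Sbsn, Krt79, Elovl3, Wif1, Myh4 and Pvalb were named after their values were seen. The members and lists were chosen with earlier results of these data known. Protein sequences were not used, so the planned classes by amino acid content were replaced by family names. Alternatives were other pseudocounts, filters, scaling, the replicate block and leaving out libraries.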

Additional observations from a re-analysis of the deposited data

How the results depend on the processing

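Over 4 libraries, 9 of the 12 limma fits, the main one and each that left out a library among them, held no Krtap gene and say nothing of the family. The other 3 tested 17 (no filter), 11 (1 TPM in 1 library) and 17 members (no filter with replicate block) and called 0 higher and 0 lower. Members above 0 only in anti-CD71 replicate 2 could not be called there at any level, so these 0 calls say little of the family. For anti-CD71 replicate 2, 3 of 7 fits held no member, and the other 4 called 0 lower. Members at 0 in both controls could not be lower there. For anti-CD71 replicate 2 against the controls, members called higher numbered 13 with 1 TPM in 1 library, 14 with a mean of 0.5 TPM, and 39 with no filter and pseudocount 0.1. Members above both controls in anti-CD71 replicate 2 stayed at 46 with at least 0.1 TPM and without either control (46 to 46), and fell to 31 with at least 1 TPM. They numbered 13 of 13 members with no shared window of 50 bases and 17 of 17 listed for all 4 libraries, both limited by fewer genes. The count in anti-CD71 replicate 1 was 0 throughout. The summed 243.6 TPM became 105.3 over the members listed for all 4 libraries, 204.22 without Krtap8-1 and 156.58 over those with no shared window.

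Counts over all genes moved more, and the cause was not tested. Over 4 libraries 13 genes were called higher and 54 lower by limma. This became 1 and 0 with no filter, 1 and 7 with 1 TPM in 1 library, and 2 and 2 with any listed transcript. Leaving out each library in turn gave 1 to 35 higher and 0 to 61 lower: 1 and 0 without control replicate 1, 2 and 0 without control replicate 2, 35 and 61 without anti-CD71 replicate 1, 11 and 22 without anti-CD71 replicate 2. Median scaling gave 19 and 38. For anti-CD71 replicate 2 the main counts were 57 higher and 286 lower, and became 0 and 0 with no filter (3401 genes at an unadjusted p under 0.05). They were 60 and 12 with 1 TPM in 1 library, 67 and 17 with a mean of 0.5 TPM, and 222 and 3 with no filter and pseudocount 0.1.

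With the replicate number as a block, limma over 4 libraries called 2 genes higher and 1 lower, and 0 and 0 with no filter and the block (315 at an unadjusted p under 0.05). Same-numbered libraries did not deviate together (correlation -0.0055 over 1563 genes). With 2 libraries per group this cannot tell whether they shared a day, batch or litter, which the labels do not state. Leaving out a control from the comparison of anti-CD71 replicate 2 leaves 1 library on each side and no test. Depth is unknown, so how far the lowest values above 0 TPM exceed counting error cannot be given.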
